A study of Mus musculus with 18 samples.

Results

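Blood progenitors (HP) were compared here with the macrophages (MAC) made from them, gene by gene, by RNA-seq of total RNA depleted of ribosomal RNA. HP were CD41+ cells and MAC were CD11b+ cells, obtained by letting CD41+ cells differentiate to the end. All cells came from 1 mouse embryonic stem (ES) cell line of strain 129 that carries GFP as a reporter for Brachyury, so that both groups share that reporter and 1 genetic background, and no group was treated with a drug or carried a deletion. The line was taken through embryoid bodies, and each stage of blood formation was sorted by GFP and surface markers, from ES cells (ESC) through mesoderm (MES), hemangioblasts (HB) and hemogenic endothelium (HE) to HP and MAC. After the HB stage the cells differentiated with added cytokines, and the part of the culture in the changes below was not tested. HE, the stage directly before HP, was not analysed here. The 4 samples of HP and MAC are 2 replicates per stage, and the 6 samples of ESC, MES and HB serve below as the earlier levels. Of 20310 genes in the table of the stages, 10576 reached 1 FPKM (fragments per kilobase of transcript, scaled to the depth of the library) in HP or, after the scaling described below, in MAC and were compared, and 9734 lay under that limit in both.

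Macrophages are phagocytes that sense microbes and dying cells through surface receptors, engulf them and break them down in lysosomes, acid compartments filled with hydrolases and acidified by a proton pump. They present peptides on MHC molecules, secrete chemokines and complement, and depend on the growth factor CSF1. Early blood progenitors, by contrast, divide and can form red cells, megakaryocytes and myeloid cells.

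The authors' table holds 1 FPKM value per stage in which both replicates are combined. No difference below therefore has a replicate check, no test was run, and the number of reads behind a value is unknown, so that low values and small differences carry an error that cannot be stated. The FPKM of all genes summed to 185803 in HP and 381686 in MAC, and the genes above 0 had their upper quartile at 10.8 FPKM in HP and 18 in MAC. To compare the stages, MAC values were multiplied by 0.599, which brings both upper quartiles together, and a change is the difference of log2(FPKM + 1) from HP to MAC on this scale. Levels below are FPKM as deposited, and changes are on the scaled log2 scale, on which a gene rose or fell when it moved at least 2-fold. The pseudocount of 1 understates the change of low genes. A gene under 1 FPKM in one stage was compared only if it was above that limit in the other, so that counts over list members describe the members measured and cannot show how typical a list is.

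On this scale 2042 genes rose and 2574 fell, which are 19.3% and 24.3% of the genes compared, and 5960 stayed within 2-fold. The median change of all genes compared was -0.21, with quartiles at -0.98 and 0.71. At 4-fold, 879 genes rose and 825 fell, and at 16-fold 193 rose and 114 fell. The split depended on the scaling: 3615 genes rose and 1501 fell with the values as deposited, where the median change of the same genes was 0.43, and 2439 rose and 2162 fell with scaling to the median ratio, where it was -0.02. Changes of gene groups below are to be read against these medians. Among genes given below as within 2-fold, *Cebpd*, *Egr1*, *Cx3cr1*, the NF-kB genes *Rel*, *Relb*, *Nfkb1* and *Nfkb2*, *Myd88*, *Gaa*, *Smpd1*, *Isg15*, *Tfrc*, *Actb* and *Ccnd2* rose past that limit with the values as deposited.

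**Figure D1:**
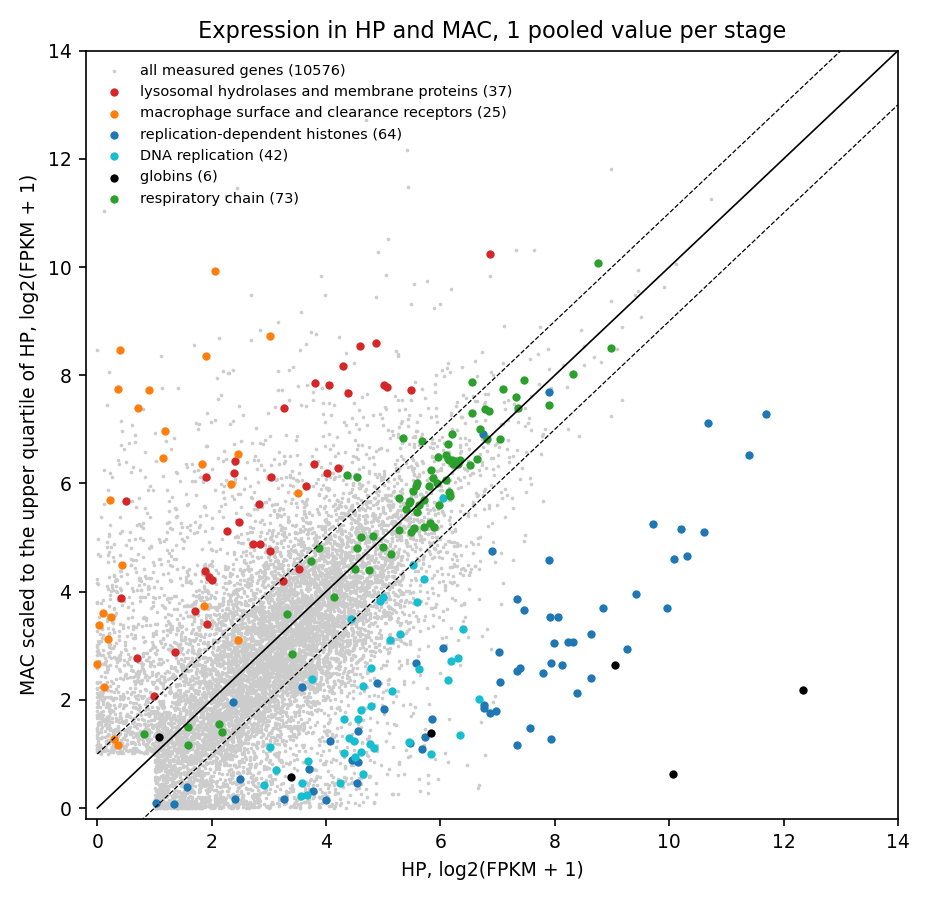
Level of each gene compared in HP (x axis) and in MAC scaled to HP (y axis), both as log2(FPKM + 1), with 1 pooled value per stage. The solid line marks equal levels and the dashed lines 2-fold. Receptor and lysosomal genes lie above the upper dashed line or near it, most histone, replication and globin genes lie below the lower one, and 67 of 73 genes of the respiratory chain lie between them.

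The labels were checked against marker genes. All 6 macrophage markers with a row rose, and their summed level was 18.9 FPKM in HP and 1527 in MAC. *Csf1r*, the receptor for CSF1, rose from 2.965 FPKM in HP to 234 FPKM in MAC. *Emr1*, which encodes F4/80, rose from 0.871 to 353 FPKM. *Mpeg1*, a pore-forming protein of phagocytes, rose from 2.73 to 543 FPKM. *Cd68*, a lysosomal glycoprotein, rose from 1.23 to 146 FPKM. *Cd14*, the co-receptor for lipopolysaccharide, was already at 10.3 FPKM in HP and reached 92.8. The gene of the sorting marker CD11b, *Itgam*, and the lysozyme gene *Lyz2* were not analysed here. Of the 8 progenitor markers 7 fell and 1, *Ptprc*, which encodes the pan-leukocyte antigen CD45, rose from 5.66 to 94.01 FPKM. *Itga2b*, which encodes CD41 and by which HP were sorted, fell from 62.5 FPKM in HP to 7.75 FPKM in MAC. *Kit* fell from 16.9 to 0.379 FPKM. *Cd34* fell from 48.9 to 7.45 FPKM.

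Markers of other cells moved with the stages. Those of red cells summed to 6869 FPKM in HP and 22.3 in MAC, those of smooth muscle to 126 and 1.58, those of fibroblasts to 37.35 and 1.11 and those of endothelium to 69.1 and 24.2. In HP, *Acta2* (87.3 FPKM) and *Tagln* (37.35 FPKM) held nearly all of the smooth muscle sum. There, 2 of 4 smooth muscle and 2 of 5 fibroblast markers were under 1 FPKM. Those of megakaryocytes summed to 40.4 FPKM in HP and 291 in MAC, where *Pf4* alone stood at 274 FPKM, and of the 5 measured 2 rose and 3 fell. In MAC the summed markers of neutrophils were at 55.2 FPKM against 12.4 in HP, of mast cells and basophils at 19.2 against 0.252, and of eosinophils at 30.03 against 0.0212. Most of these last 3 sums lay in 1 or 2 genes each, and 4 of 7 neutrophil, 4 of 5 mast cell and basophil and 2 of 3 eosinophil markers were under 1 FPKM in MAC. The neutrophil genes *S100a8* and *S100a9* stood at 39.1 and 13.75 FPKM in MAC. *Cpa3*, a mast cell protease, stood at 18.75 FPKM and *Prg2*, an eosinophil granule protein listed at 0 in HP, at 29.55 FPKM. All 4 lymphoid markers were under 1 FPKM in both stages and 3 of them were listed at 0 in MAC. In bulk samples, fewer cells of a type and less RNA per cell cannot be told apart, and the part of other cells in the changes below was not tested.

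**Figure D2:**
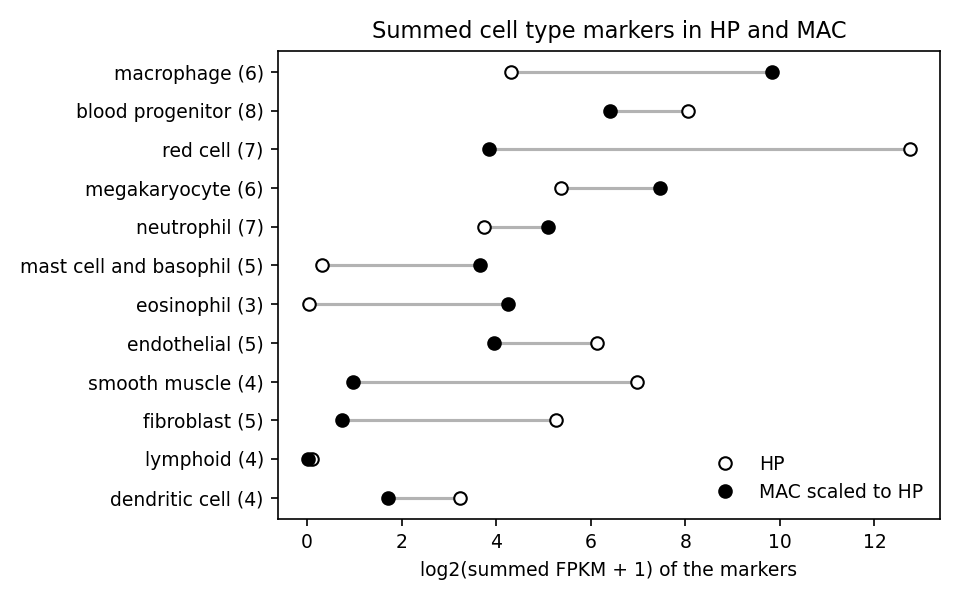
Summed level of the markers of 12 cell types in HP (open circles) and in MAC scaled to HP (filled circles), as log2(summed FPKM + 1), with the number of markers that have a row in parentheses. Macrophage markers lie highest in MAC, and red cell, smooth muscle and fibroblast markers lie far lower in MAC than in HP.

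The genes that rose most encode secreted or surface proteins of phagocytes, a subunit of the lysosomal proton pump and a lipase. *Nov* (chromosome 15, 54745928 to 54753761 on GRCm38), which encodes the matrix-associated protein CCN3, rose most, from 0.0846 FPKM in HP to 3506 FPKM in MAC, a change of 10.92. *Spp1* (chromosome 5, 104435111 to 104441053), which encodes the secreted phosphoprotein osteopontin, rose from 25.1 to 11303 FPKM and made up 2.96% of all FPKM in MAC. *Lgals3*, which encodes the sugar-binding galectin-3, rose from 3.78 to 4262 FPKM. The chemokine gene *Ccl6* rose from 4.47 to 4727 FPKM. *Mgll*, which encodes the lipase of monoglycerides, rose from 0.153 to 445 FPKM. Except *Spp1*, these genes were under 10 FPKM in HP.

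Among transcription factors of myeloid cells, 16 of 19 measured members rose and none fell, with a median change of 3.36. *Sfpi1*, which encodes PU.1, a master regulator of macrophages, was already at 16.7 FPKM in HP and rose to 111. Its partners *Cebpa* and *Cebpb* of the C/EBP family rose from 2.42 to 59.2 FPKM and from 13.5 to 140.1 FPKM. The largest change of the list belonged to *Pparg*, a nuclear receptor that acts on lipid genes (from 0.163 to 60.9 FPKM, change 5.01). *Atf3*, a factor induced by stress, rose from 4.83 to 255 FPKM, a change of 4.72. *Maf*, a factor of mature macrophages, rose from 0.7295 to 62.5 FPKM and *Irf8*, which is needed for monocytes, from 2.999 to 127 FPKM. *Mitf* and *Tfec*, of the family that binds the E-box of lysosomal genes, rose from 0.870 to 30.3 FPKM and from 5.495 to 86.8 FPKM. Within 2-fold stayed *Nr4a1*, *Cebpd* and *Egr1*, none of which was above 10 FPKM in either stage.

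The receptors for blood growth factors were exchanged. Of 23 measured, 18 rose and 3 fell, with a median change of 2.05. Among those that fell were *Kit*, the receptor for stem cell factor, with a change of -3.86, and *Epor*, that for erythropoietin (from 17.6 to 6.21 FPKM). Those that rose included *Csf1r*, with a change of 5.15, and *Csf2ra*, a chain of the GM-CSF receptor (from 2.27 to 63.6 FPKM). *Il10rb*, a chain shared by receptors of the interleukin-10 family, rose from 6.27 to 134 FPKM. *Il7r*, better known from lymphocytes, rose from 0.318 to 67.8 FPKM. The receptor gene *Csf3r*, which serves neutrophils, stood at 0.9855 and 2.52 FPKM, within 2-fold. *Csf1* itself, the ligand of *Csf1r*, rose as well, from 4.225 to 176 FPKM.

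Receptors by which macrophages recognise their targets rose in most cases. Of 32 surface and clearance receptors listed, 25 were measured and 22 rose, with a median change of 4.08 and a largest one of 8.07. *Msr1*, a scavenger receptor for modified lipoproteins, rose from 0.3165 to 589 FPKM. *Clec7a*, which encodes the beta-glucan receptor Dectin-1, rose from 3.16 to 1621 FPKM. *Trem2*, a receptor for lipids, rose from 0.2805 to 355 FPKM. *Mrc1*, the mannose receptor, rose from 0.6295 to 279 FPKM. Gains were not uniform: *Cx3cr1*, the receptor for fractalkine, stood at 4.53 and 12.7 FPKM, within 2-fold, and *Marco*, *Timd4*, *Cd163*, *Clec10a*, *Clec4e* and *Trem3* were under 1 FPKM in both stages on the scaled values. Of Fc receptors, which bind antibody, and the ITAM signalling chain behind them, 18 of 19 rose, with a median change of 2.53. *Fcgr3*, a receptor for immune complexes, rose from 5.43 to 1194 FPKM. *Fcgr1*, the high-affinity IgG receptor, rose from 0.783 to 158 FPKM. The inhibitory *Fcgr2b* rose from 1.22 to 214 FPKM. *Tyrobp*, the adaptor known as DAP12, rose from 32.8 to 2442 FPKM. The exception was *Plcg2*, a phospholipase downstream of these receptors, at 58.6 and 69.4 FPKM.

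Toll-like receptors, which sense microbial molecules, and their adaptors followed the same direction, with 13 of 15 measured members risen, none fallen and a median change of 2.58. *Tlr13*, a sensor of bacterial ribosomal RNA, rose from 0.532 to 131 FPKM. *Tlr7*, a sensor of single-stranded RNA, rose from 0.908 to 46.1 FPKM. *Tlr4*, the receptor for lipopolysaccharide, rose from 1.84 to 49.1 FPKM. *Unc93b1*, which carries the nucleic acid sensors to endosomes, rose from 4.205 to 236 FPKM. The adaptors *Myd88* (10.4 and 31.1 FPKM) and *Ticam1* (1.80 and 3.65) stayed within 2-fold, and *Tlr5*, *Tlr6*, *Tlr9*, *Tlr11*, *Tlr12*, *Irak3* and *Ly86* were under the limit in both stages. Of the inflammasome and NF-kB genes 13 of 18 rose, with a median change of 1.76. *Casp1*, the protease that matures interleukin-1, rose from 0.498 to 38.96 FPKM and *Tnfaip3*, an inhibitor of NF-kB, from 1.935 to 28.45 FPKM. *Naip2*, a sensor of bacterial secretion systems, rose from 1.60 to 23.4 FPKM. The 5 that stayed within 2-fold were the NF-kB subunits *Rela*, *Rel*, *Relb*, *Nfkb1* and *Nfkb2*, with changes from -0.07 to 0.91.

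The machinery for killing and tagging microbes rose as a group. All 7 genes of the NADPH oxidase, which makes superoxide in the phagosome, rose, with a median change of 3.78. Its membrane subunits *Cyba* and *Cybb* rose from 42.1 to 4789 FPKM and from 1.61 to 121 FPKM. Of its cytosolic subunits, *Ncf4* rose from 5.11 to 139 FPKM and *Ncf1* from 10.1 to 94.7 FPKM. *Hvcn1*, the proton channel that keeps the oxidase running, rose from 0.957 to 97.1 FPKM, and the small GTPase gene *Rac2* from 4.46 to 64.3 FPKM. Of 11 measured complement genes, 9 rose, with a median change of 5.01. *C1qb* and *C1qc*, subunits of the recognition protein C1q, rose from 0.128 to 289 FPKM and from 0.160 to 119.8 FPKM. *Cfp*, which encodes properdin, rose from 1.66 to 359 FPKM. *C3*, *C4b*, *Cfb*, *C1ra* and *C1s*, which carry the cascade onward, were under the limit in both stages, and the inhibitors *Cd55* and *Cd59a* stayed within 2-fold.

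Chemokines and their receptors rose together. Of 14 measured ligands 12 rose, 1 fell and 1 stayed within 2-fold, and the median change was 2.93. Of 15 receptors 13 rose and 0 fell, with a median of 2.60. *Ccl6* had the largest change (9.02). *Ccl2* and *Ccl12*, which attract monocytes through CCR2, rose from 3.35 to 688 FPKM and from 0.337 to 173 FPKM. *Ccl3* and *Ccl4*, which attract monocytes and lymphocytes, rose from 10.3 to 152 FPKM and from 4.001 to 226 FPKM. *Cxcl12*, which holds progenitors in their niche, fell from 2.98 to 0.0486 FPKM. Among the receptors *Ccr1* rose from 1.19 to 362 FPKM, *Ptafr*, the receptor for platelet-activating factor, from 2.37 to 125 FPKM. *P2ry6*, a receptor for the nucleotide UDP, rose from 0.209 to 39.8 FPKM. *Ccl2* and *Ccl12*, like other chemokine genes in clusters, have close paralogs, and the table was made from reads that map to 1 place. How many reads this took from them was not measured here.

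Of 27 cytokine genes with a row, 11 rose, 5 stayed within 2-fold and 11 were under the limit in both stages, among them *Il6*, *Il10*, *Il12b*, *Ifnb1* and *Lif*, and the median change of those measured was 2.07. *Grn*, which encodes the lysosomal growth factor progranulin, rose from 10.7 to 591 FPKM. *Igf1*, a growth factor, rose from 4.68 to 182 FPKM. *Il18*, a cytokine of the interleukin-1 family, rose from 0.2705 to 29.4 FPKM. *Tnf*, an inflammatory cytokine, rose to a lower level (from 1.13 to 12.6 FPKM), as did *Il1b*, which encodes interleukin-1 beta (from 0.2605 to 9.62 FPKM). *Il1b* and *Il18* were counted both here and with the inflammasome. Other genes were shared between lists too, among them *Itgax* (complement and integrins) and *Pf4* (chemokine ligands and platelet genes), so that the lists are not independent. Of 16 genes that mark polarised macrophages, 9 were under the limit in both stages, among them *Nos2*, *Irg1*, *Arg1*, *Retnla* and *Chi3l3*, and 2 of the 7 measured rose, with a median change of 0.47. These were *Slc7a2*, an arginine transporter (from 0.321 to 55 FPKM), and *Il4ra*, the interleukin-4 receptor (from 7.34 to 55.4 FPKM). *Marcksl1*, a relative of the kinase substrate MARCKS, fell from 24.03 to 17.8 FPKM, a change of -1.10 that was -0.89 with scaling to the median ratio and -0.41 as deposited.

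The lysosome was gained across its parts. Of 37 hydrolases and membrane proteins, 35 rose and the other two, *Gaa* and *Smpd1*, had changes of 0.95 and 0.89. The median change was 2.72, and the median level went from 7.15 FPKM in HP to 60.9 scaled FPKM in MAC. *Lamp1*, the main membrane glycoprotein, was the most abundant in both stages and rose from 116 to 2032 FPKM. The largest change was that of *Gm2a*, the activator protein for ganglioside breakdown (from 0.412 to 83.9 FPKM, change 5.18). *Naglu*, which degrades heparan sulfate, rose from 2.75 to 114 FPKM. *Fuca1*, a fucosidase, rose from 8.56 to 279 FPKM.

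Of 12 measured cathepsins, legumain and cystatins 11 rose, with a median change of 3.53. *Ctsl* (chromosome 13, 64363214 to 64370306), a cysteine protease, rose from 41.5 to 7629 FPKM and alone held 2% of all FPKM in MAC. *Lgmn*, which cleaves after asparagine, rose from 14.1 to 1527 FPKM and *Ctsz*, a cysteine carboxypeptidase, from 28.9 to 2075 FPKM. *Ctsa*, which also protects lysosomal sialidase, rose from 10.3 to 369 FPKM. *Ctsk*, the collagen-degrading protease of osteoclasts, rose from 0.07615 to 22.3 FPKM. *Ctse*, an endosomal aspartic protease, stood at 9.90 and 14.6 FPKM and was the exception.

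The vacuolar proton pump, which acidifies lysosomes, rose as a whole. All 17 of its measured genes rose, with a median change of 2.28, and 16 of them with changes between 1.32 and 4.31. *Atp6v1a*, a subunit of the catalytic head, rose from 39.4 to 311 FPKM, a change of 2.21. *Atp6v1b2*, its partner in the head, rose from 58.4 to 1014 FPKM, a change of 3.36. *Tcirg1*, the a3 subunit of the pump in phagocytes and osteoclasts, rose from 7.61 to 284 FPKM. *Atp6v0a1*, the a1 subunit found in many cells, rose from 10.8 to 289 FPKM. *Atp6v0d2* (chromosome 4, 19876838 to 19922566), the d2 subunit, was listed at 0 in ESC, MES, HB and HP and stood at 590.3 FPKM in MAC, whereas its paralog *Atp6v0d1* is the form of most cells and rose from 58.6 to 341 FPKM.

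**Figure D3:**
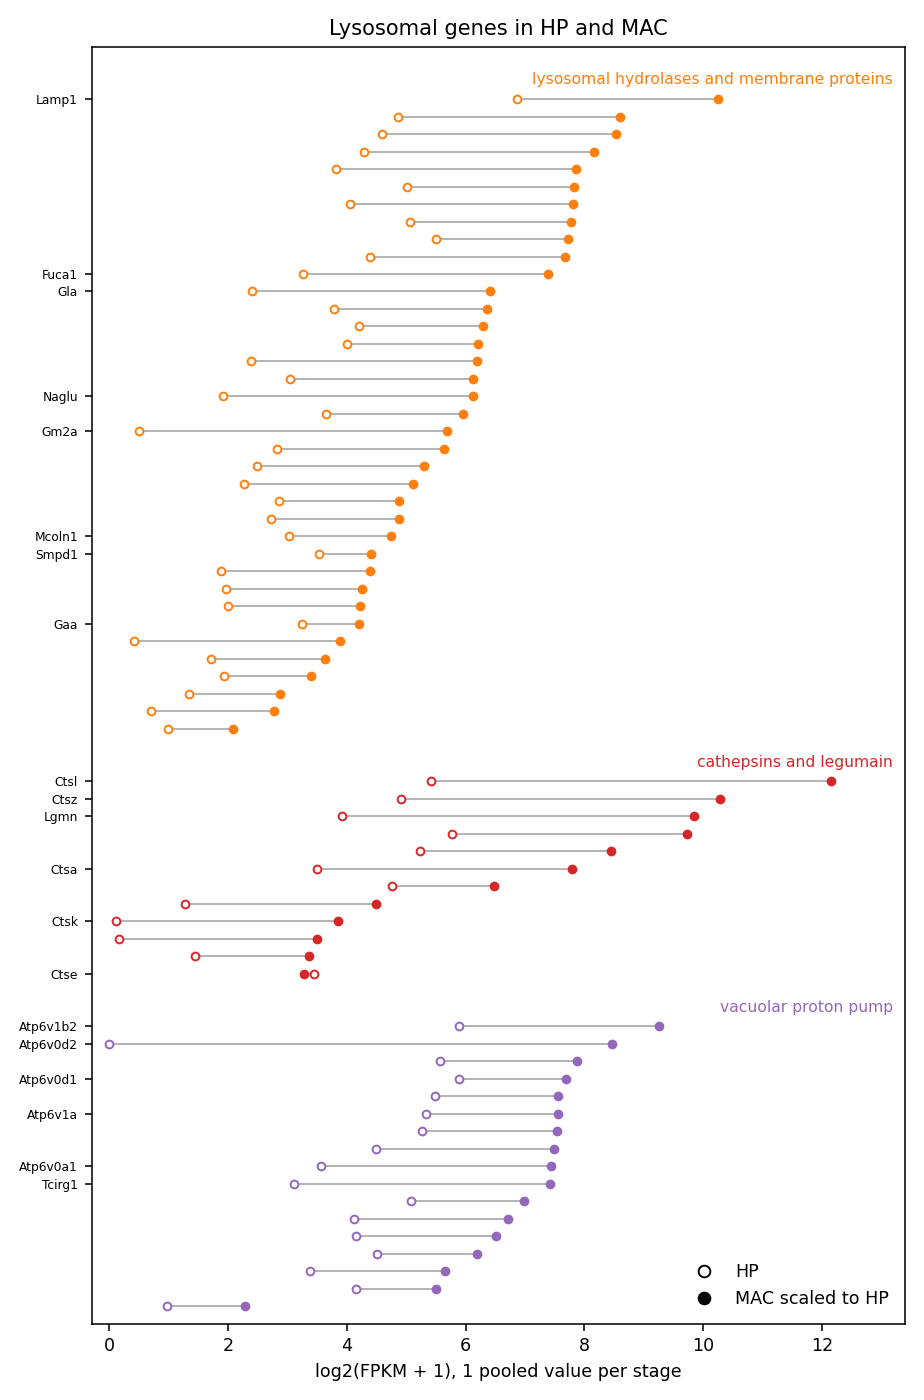
Level of each measured gene of the lysosome (those named in the text are labelled) in HP (open circles) and in MAC scaled to HP (filled circles), as log2(FPKM + 1). Every gene lies to the right in MAC except Ctse, and Atp6v0d2 starts at 0.

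Promoters of the list genes were searched for short motifs on both strands of RefSeq windows of GRCm38.p6, which run from 250 bases before to 50 after each start site. The motifs were PU.1, C/EBP, AP-1, RUNX, GATA, the MiT/TFE E-box, the NF-Y box, E2F, CHR, the histone octamer, the TATA box and the GC box, each searched on its own, so that matches of different motifs can overlap, and their letters are given where a result is. The windows matched 767 of 977 measured list genes, and a gene can have several. A RefSeq start site can lie apart from the one at which the gene's row in the table begins, as it does for the windows of *Atp6v1a*, *Mcm5*, *Mcm6* and *Mmp12* shown. The E-box TCACGTGA of lysosomal genes is bound by factors of the MiT/TFE family. Of all 32851 windows 0.974% held it, against 3 of 33 windows (9.09%) of the hydrolases and membrane proteins and 3 of 16 (18.8%) of the proton pump. Shown are the 250 bases before the start site of 3 risen genes that carry it, with the E-box in capitals: *Gla*, which encodes a galactosidase (from 4.32 to 141 FPKM), has 2 copies, and the calcium channel gene *Mcoln1* (from 7.15 to 43.2 FPKM) and *Atp6v1a* have 1 each. A match describes the letters of the window and no binding was measured here.
*Gla* (chrX:134601006-134601255, minus strand): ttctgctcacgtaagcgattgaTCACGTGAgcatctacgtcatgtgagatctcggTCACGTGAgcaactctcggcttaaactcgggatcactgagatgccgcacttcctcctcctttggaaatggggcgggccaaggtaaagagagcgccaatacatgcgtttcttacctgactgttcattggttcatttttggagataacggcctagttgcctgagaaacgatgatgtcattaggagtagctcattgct
*Mcoln1* (chr8:3500269-3500518, plus strand): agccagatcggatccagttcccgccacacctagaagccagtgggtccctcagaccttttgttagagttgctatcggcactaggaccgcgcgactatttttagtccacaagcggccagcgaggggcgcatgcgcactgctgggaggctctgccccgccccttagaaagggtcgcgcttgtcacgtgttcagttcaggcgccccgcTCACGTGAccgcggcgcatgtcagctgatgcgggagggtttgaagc
*Atp6v1a* (chr16:44139260-44139509, minus strand): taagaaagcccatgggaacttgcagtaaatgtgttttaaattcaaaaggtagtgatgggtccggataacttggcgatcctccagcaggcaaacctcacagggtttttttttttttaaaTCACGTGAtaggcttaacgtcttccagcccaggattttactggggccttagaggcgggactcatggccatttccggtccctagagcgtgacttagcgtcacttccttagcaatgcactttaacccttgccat

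Antigen presentation rose in both classes. All 14 measured genes of MHC class I presentation rose, with a median change of 3.04. The heavy chain gene *H2-K1* rose from 13.1 to 725 FPKM and *B2m*, the light chain, from 45.3 to 1375 FPKM. The row shared by *H2-D1* and *H2-L*, whose copies are nearly identical, rose from 6.19 to 758 FPKM. *H2-T23*, a non-classical gene of the class, rose from 1.22 to 116 FPKM. All 10 measured class II genes rose, with a median change of 3.51 and to lower levels. *Cd74*, the invariant chain, rose from 0.143 to 97.1 FPKM. The alpha and beta chain genes *H2-Aa* and *H2-Ab1* rose from 0.00924 to 41.4 FPKM and from 0.226 to 37.7 FPKM, and *H2-Eb1*, listed at 0 in HP, stood at 28.3 FPKM in MAC. *Ciita*, the activator of class II genes, was under the limit in both stages, as were *H2-Oa*, *H2-Ob* and *Cd40*. Of 29 measured interferon-stimulated genes 24 rose and 0 fell, with a median change of 1.62. *Ifi27l2a* rose from 0.509 to 122 FPKM. *Ifi204*, a DNA-binding protein of the nucleus, rose from 0.577 to 34.65 FPKM. *Oas1a*, which senses double-stranded RNA, rose from 0.639 to 41.7 FPKM and *Irf7*, a factor that drives interferon genes, from 1.36 to 38.1 FPKM. *Isg15* (15.35 and 39.9 FPKM) and *Ifitm3* (25.4 and 49.9 FPKM) stayed within 2-fold, with changes of 0.61 and 0.23.

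Genes that take up, store and export lipids rose in 15 of 18 measured cases, with a median change of 3.08. The fatty acid carriers *Fabp5* and *Fabp4* rose from 2.22 to 628 FPKM and from 0.0782 to 80.75 FPKM. *Lpl*, which frees fatty acids from lipoproteins, rose from 32.05 to 1548 FPKM. *Plin2*, which coats lipid droplets, rose from 28.4 to 1168 FPKM. The cholesterol exporters *Abca1* and *Abcg1* rose from 2.15 to 135 FPKM and from 3.15 to 239 FPKM. Their acceptor gene *Apoe* rose from 72.15 to 1292 FPKM. Genes of cholesterol synthesis stayed mostly within 2-fold on this scale. Of 21 genes 2 rose and 1 fell, against 9 risen and 0 fallen with the values as deposited. *Mvd* and *Ebp*, enzymes of the pathway, rose from 37.2 to 199.9 FPKM and from 8.48 to 35.9 FPKM, and *Acat2*, of its first step, fell from 36.2 to 18.8 FPKM, a change of -1.60 that was -0.91 as deposited. *Hmgcs1*, the synthase that follows, was at 108 and 293 FPKM and *Sc4mol*, a late demethylation enzyme, at 109 and 303 FPKM, both within 2-fold on this scale but not with the values as deposited. The median change of -0.08 turned to 0.65 with the values as deposited and to 0.14 with scaling to the median ratio. Of 14 measured enzymes of eicosanoids, lipid mediators of inflammation, 6 rose and 2 fell, with a median change of 0.57. *Hpgds*, the synthase of prostaglandin D2, rose from 0.839 to 95.95 FPKM and *Tbxas1*, the thromboxane synthase, from 0.911 to 45.65 FPKM. *Pla2g7*, which breaks down platelet-activating factor, rose from 1.93 to 135 FPKM and *Alox5ap*, the partner of arachidonate lipoxygenase, from 39.3 to 237 FPKM. *Ptges3*, a synthase of prostaglandin E2 and a chaperone partner, fell from 36.7 to 12.8 FPKM and *Ptgis*, the prostacyclin synthase, from 3.83 to 0.916 FPKM.

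Of 11 measured genes of iron handling 7 rose and none fell, with a median change of 2.59. *Slc11a1*, which encodes the phagosomal metal pump NRAMP1, rose from 1.01 to 202 FPKM. *Slc40a1*, the iron exporter ferroportin, rose from 1.96 to 131 FPKM. *Hmox1*, which opens the heme ring, rose from 12.9 to 399 FPKM. *Trf*, transferrin, rose from 1.16 to 546 FPKM. The transferrin receptor gene *Tfrc*, used by dividing and red cells, was at 144 and 309 FPKM, within 2-fold. The ferritin heavy chain gene *Fth1* was listed at 0.0137 and 0.0541 FPKM and the housekeeping gene *Gapdh* at 0.337 and 0.171. The values come from reads that map to 1 place, and whether this lowered them was not tested.

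Secreted matrix genes split in the transition. Of 22 measured, with a median change of 2.49, 13 rose, led by *Nov*, *Lgals3*, *Spp1* and *Mmp12*, the macrophage elastase (from 0.0891 to 126 FPKM), and 6 fell. Which cells the fallen genes came from was not tested. *Timp3*, an inhibitor of metalloproteases, fell from 12.6 to 0.231 FPKM and *Mmp2*, a gelatinase, from 5.94 to 0.513 FPKM. *Sparc*, a collagen-binding protein, fell from 45.4 to 8.92 FPKM and *Fn1*, fibronectin, from 74.4 to 35.2 FPKM. *Tgfbi*, a matrix adhesion protein, fell from 9.80 to 4.01 FPKM. The PU.1 letters GAGGAAGT were found in 3 of 16 windows of the whole list (18.8%), against 3.2% of all windows. *Spp1* and *Mmp12*, both of which hold them before a RefSeq start site, are shown with the letters, on either strand, in capitals. The *Mmp12* window lies before a start site upstream of the one at which its row in the table begins (position 7347374), and the window at that later site does not hold the letters. The highest share of the PU.1 letters among lists with at least 5 windows was that of neutrophil granule genes, with 5 of 7 windows (71.4%). The same letters were in 0 of 23 windows of myeloid transcription factors, in 2 of 33 windows of the lysosomal hydrolases and membrane proteins, and in 5 of 38 windows of ribosome biogenesis, a list that fell. The AP-1 letters TGANTCA were in 5 of 17 windows of cytokine genes (29.4%) and 7 of 24 of interferon-stimulated genes (29.2%), against 7.81% of all windows. The C/EBP letters TTGCNNAA were in 3 of 23 windows of myeloid transcription factors (13%), against 10.8% of all, in 5 of 16 of the matrix list (31.2%) and in 3 of 7 of neutrophil granule genes (42.9%). The RUNX letters TGTGGTT were in 1 of 25 windows of the progenitor factors, against 5.27% of all. The GC box GGGCGG was in 28 of 38 windows of ribosome biogenesis and in 14 of 16 of the proton pump, a list that rose, against 35.7% of all.
*Spp1* (chr5:104434861-104435110, plus strand): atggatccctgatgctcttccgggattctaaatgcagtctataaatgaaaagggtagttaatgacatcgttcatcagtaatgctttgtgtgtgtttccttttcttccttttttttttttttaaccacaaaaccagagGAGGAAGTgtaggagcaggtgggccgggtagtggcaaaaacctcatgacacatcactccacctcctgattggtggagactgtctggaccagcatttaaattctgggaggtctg
*Mmp12* (chr9:7344147-7344396, plus strand): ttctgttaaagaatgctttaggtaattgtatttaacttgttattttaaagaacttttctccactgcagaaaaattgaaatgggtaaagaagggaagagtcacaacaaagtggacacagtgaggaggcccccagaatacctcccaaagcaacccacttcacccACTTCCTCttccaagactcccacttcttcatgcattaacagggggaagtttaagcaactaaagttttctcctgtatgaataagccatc

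The actin cytoskeleton and adhesion changed in part. Of 29 actin regulators 17 rose and 12 stayed within 2-fold, with a median change of 1.39. *Capg*, which caps filaments, rose from 11.6 to 639.7 FPKM. The motor genes *Myo1f* and *Myo1e* rose from 8.40 to 353 FPKM and from 1.32 to 62.4 FPKM. *Lcp1*, which bundles filaments in leukocytes, rose from 11.6 to 287 FPKM. *Actb*, beta-actin, was at 1693 and 4112 FPKM, a change of 0.54. Of 12 measured integrins 4 rose and 2 fell, with a median change of 0.72. *Itgax*, which encodes CD11c, rose from 0.2845 to 143 FPKM and *Itgb2*, the beta chain of CD11b and CD11c, from 7.95 to 353 FPKM. *Itgb5*, a partner of the alpha-v chain, rose from 4.53 to 52.15 FPKM. The platelet pair *Itga2b* and *Itgb3* fell, the latter from 96.7 to 35.5 FPKM. *Itgb1*, at 108 and 336 FPKM, stayed within 2-fold on this scale and passed it with the values as deposited (1.62) and with scaling to the median ratio (1.11).

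Of the 10 genes that fell most from HP to MAC, 3 were embryonic globins and 5 were histones, and the others were *Mest* and *Car2*, described below. Of 6 globin rows 5 fell, with a median change of -5.43. *Hbb-bh1* (chromosome 7, 103841638 to 103843162), an embryonic beta-type globin gene, fell from 5182 FPKM in HP to 5.92 FPKM in MAC, a change of -10.15. *Hba-x*, the embryonic alpha-type gene, fell from 1071 to 0.902 FPKM and *Hbb-y*, another embryonic beta-type gene, from 529.8 to 8.79 FPKM. The row of the adult pair *Hba-a1* and *Hba-a2*, nearly identical copies, fell from 56.2 to 2.68 FPKM, and that of *Hbb-b1* and *Hbb-b2* was low in both stages, at 1.12 and 2.48 FPKM, and stayed within 2-fold.

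The rest of the red cell program fell with them. All 19 measured genes of the red cell membrane and surface fell, with a median change of -2.64 and a median level of 9.29 FPKM in HP and 0.0995 scaled FPKM in MAC. *Car2*, a carbonic anhydrase, fell from 101 to 0.579 FPKM and *Sptb*, a spectrin, from 27.6 to 0.1235 FPKM. *Car2* was also high before HP, at 143, 188 and 181 FPKM as deposited in ESC, MES and HB. Of 13 genes of heme synthesis and transport 10 fell, 2 (*Uros* and *Slc25a38*) stayed within 2-fold and 1 rose, with a median change of -1.78. The first step of the pathway was exchanged: *Alas2*, the red cell enzyme, fell from 35.2 to 0.316 FPKM, and *Alas1*, the enzyme of other cells, rose from 5.90 to 127 FPKM. The mitochondrial transporter genes *Abcb10* and *Abcb6* fell from 105 to 13.5 FPKM and from 22.6 to 2.98 FPKM. *Cpox*, a late enzyme of the pathway, fell from 27.6 to 4.68 FPKM.

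Transcription factors of progenitors and of red cells and megakaryocytes fell in 17 of 20 measured cases and rose in none, with a median change of -2.03. *Gata1*, the master factor of red cells and megakaryocytes, fell from 37.2 to 0.884 FPKM and *Zfpm1*, its cofactor FOG-1, from 52.3 to 2.91 FPKM. *Klf1*, which drives globin genes, fell from 28.4 to 0.339 FPKM and *Gfi1b*, a repressor of red cells and megakaryocytes, from 23.4 to 0.319 FPKM. *Myb*, which keeps progenitors dividing, fell from 19.3 to 0.789 FPKM. *Tal1* and *Erg*, factors of early blood, fell from 57.3 to 18.1 FPKM and from 7.44 to 0.0964 FPKM. *Runx1*, which is needed for the emergence of blood, fell from 19.2 to 9.73 FPKM, a change of -1.56 that was -0.91 with the values as deposited. The 3 that stayed within 2-fold were the partners *Lmo2* (49.4 and 53.05 FPKM) and *Ldb1* (32.8 and 30.98 FPKM) and the homeobox gene *Hhex* (5.52 and 10.2 FPKM).

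Megakaryocyte and platelet genes were not lost as 1 group. Of 17 measured 13 fell, 3 rose and 1 stayed within 2-fold, with a median change of -1.74. *Tubb1*, the platelet tubulin, fell from 42.45 to 1.55 FPKM. *P2rx1*, an ATP-gated channel, fell from 28.7 to 3.37 FPKM. *Rab27b*, needed for granules, fell from 11.8 to 0.561 FPKM. *Pf4*, a chemokine of platelet granules, rose from 22.97 to 274 FPKM. *Plek*, the kinase substrate pleckstrin, rose from 105 to 575 FPKM. *Vwf*, von Willebrand factor, rose from 2.67 to 15.85 FPKM. *Gp5* and *Gp9*, subunits of a platelet adhesion receptor, were under 1 FPKM in MAC, at 0.5585 and 0.871. The GATA letters AGATAAG were found in 3 of 13 windows of the red cell list (23.1%) and in 3.04% of all windows. They were also in 3 of 21 windows of the growth factor receptors (14.3%), where 18 of 23 measured genes rose. Of the progenitor factors, 2 of 25 windows (8%) held them. One of the red cell windows belongs to *Trim10*, a red cell gene (from 12.02 to 0.0242 FPKM). It is shown with the letters, here on the other strand, in capitals.
*Trim10* (chr17:36869324-36869573, plus strand): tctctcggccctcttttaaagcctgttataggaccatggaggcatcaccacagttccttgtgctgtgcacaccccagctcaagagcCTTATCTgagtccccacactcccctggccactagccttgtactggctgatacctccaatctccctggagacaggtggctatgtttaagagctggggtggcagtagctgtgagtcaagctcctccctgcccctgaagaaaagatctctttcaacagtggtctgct

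Cell division genes fell nearly without exception. All 37 measured genes of mitosis fell, with a median change of -3.59, 40 of 42 of DNA replication (-3.02) and 18 of 21 of homologous recombination and crosslink repair (-2.59). *Top2a*, which untangles chromosomes, fell from 104 to 3.37 FPKM. *Cdc20*, which starts anaphase, fell from 53.9 to 0.8715 FPKM. *Bub1b*, a checkpoint kinase, fell from 40 to 0.902 FPKM. *Mki67*, the marker of dividing cells, fell from 51.3 to 2.46 FPKM. *Birc5*, which encodes survivin, a part of the chromosomal passenger complex, fell from 51.5 to 2.08 FPKM. The helicase genes *Mcm6*, *Mcm5* and *Mcm7*, which open the origins, fell from 79.9 to 2.56 FPKM, from 101 to 5.05 FPKM and from 42.9 to 2.23 FPKM. *Rrm2*, which makes deoxynucleotides, fell from 56.4 to 1.685 FPKM. Of the repair genes, *Fancd2*, of the crosslink pathway, fell from 10.5 to 0.202 FPKM and *Exo1*, an exonuclease, from 10.3 to 0.208 FPKM. *Pcna*, the sliding clamp of replication and repair, was an exception at 65.1 and 87.45 FPKM, together with *Rfc1*, which loads it.

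Motifs known from cell cycle genes were searched in the windows of these lists. The E2F letters TTTGGCGC or TTTCGCGC were in 10 of 39 windows of replication genes (25.6%), against 0.813% of all windows. The CHR letters TTTGAA, known as a site of the DREAM complex, were in 24 of 33 windows of mitosis genes (72.7%) against 17.9% of all. The NF-Y box CCAAT was in 26 of 33 (78.8%) against 37.4%. That box was also frequent in lists that did not fall, with 9 of 11 windows of MHC class I presentation (81.8%) and 16 of 20 of cholesterol synthesis (80%). The CHR letters were in 7 of 21 windows of surface and clearance receptors (33.3%) and 1 of 23 of myeloid transcription factors (4.35%), lists that rose. The E2F letters were in 2 of 25 windows of the progenitor factors (8%) and 0 of 23 of myeloid transcription factors. *Mcm5* and *Mcm6* are shown with the E2F letters in capitals, where matches on both strands overlap, and *Top2a* and *Cdc20* with the CHR letters in capitals.
*Mcm5* (chr8:75109259-75109508, plus strand): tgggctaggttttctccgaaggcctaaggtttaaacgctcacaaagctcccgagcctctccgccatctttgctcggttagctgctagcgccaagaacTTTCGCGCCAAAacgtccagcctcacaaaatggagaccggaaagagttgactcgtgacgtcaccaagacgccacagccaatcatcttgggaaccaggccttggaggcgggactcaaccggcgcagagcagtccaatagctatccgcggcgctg
*Mcm6* (chr1:128359706-128359955, minus strand): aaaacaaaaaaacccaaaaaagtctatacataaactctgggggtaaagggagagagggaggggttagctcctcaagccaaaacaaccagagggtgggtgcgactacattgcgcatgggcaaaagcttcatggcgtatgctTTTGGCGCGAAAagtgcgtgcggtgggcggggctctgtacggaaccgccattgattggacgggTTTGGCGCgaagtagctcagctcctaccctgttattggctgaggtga
*Top2a* (chr11:99024190-99024439, minus strand): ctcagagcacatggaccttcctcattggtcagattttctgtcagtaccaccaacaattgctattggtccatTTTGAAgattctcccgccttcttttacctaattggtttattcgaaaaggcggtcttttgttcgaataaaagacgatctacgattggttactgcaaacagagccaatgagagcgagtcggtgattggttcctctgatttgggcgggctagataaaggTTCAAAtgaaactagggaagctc
*Cdc20* (chr4:118437344-118437593, minus strand): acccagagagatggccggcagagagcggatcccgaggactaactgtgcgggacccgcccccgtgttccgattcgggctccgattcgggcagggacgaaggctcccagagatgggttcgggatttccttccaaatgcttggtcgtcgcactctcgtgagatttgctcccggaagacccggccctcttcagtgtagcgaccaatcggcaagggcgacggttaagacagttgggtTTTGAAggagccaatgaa

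Regulators of the G1 and S phases did not all fall. Of 24 measured 14 fell, 6 stayed within 2-fold and 4 rose, with a median change of -1.20. The cyclins *Ccna2*, *Ccne1* and *Ccne2*, which drive S phase, fell from 59.1 to 1.47 FPKM, from 18.3 to 3.06 FPKM and from 14.7 to 0.598 FPKM. The D cyclins, which answer to growth factors, moved apart. *Ccnd3* fell from 101 to 22.6 FPKM, whereas *Ccnd1* rose from 4.37 to 38.85 FPKM, and *Ccnd2* was at 13.6 and 30.9 FPKM, within 2-fold. Of inhibitors of cyclin-dependent kinases, *Cdkn2a* rose from 27.2 to 148 FPKM and *Cdkn1a*, which encodes p21, from 23.3 to 99.5 FPKM. Other inhibitors, *Cdkn1b* and *Cdkn2d*, fell from 12.1 to 8.25 FPKM and from 19.9 to 7.91 FPKM. The change of *Cdkn1b*, -1.14, was -0.50 with the values as deposited and -0.95 with scaling to the median ratio, within 2-fold in both. *Cdk6*, a partner of the D cyclins, rose from 4.29 to 20.99 FPKM.

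*Cdkn2a* (chromosome 4, 89274473 to 89294619) was also the only one of 970 measured genes with several start sites in which 1 start site rose and another fell at least 4-fold, each with at least 10 FPKM in its higher stage. One start site went from 8.943 to 146 FPKM, a change of 3.15, and the other from 18.24 to 2.336 FPKM, which fell past the 4-fold limit. The locus encodes p16INK4a and p19ARF from separate first exons, and the deposited table does not say which value belongs to which.

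Histone genes whose mRNAs are made in S phase made up the largest loss of summed FPKM among the lists. They held 12.3% of all FPKM in HP and 0.494% in MAC, 60 of 64 measured fell, with a median change of -4.42, and the median level was 146 FPKM in HP and 4.46 scaled FPKM in MAC. *Hist1h3g* and *Hist1h3c*, which encode histone H3, fell from 244 to 2.39 FPKM and from 398 to 7.12 FPKM. *Hist1h4k*, which encodes histone H4, fell from 610.4 to 11.2 FPKM and *Hist1h2bh*, of histone H2B, from 334 to 5.60 FPKM. *Hist1h1b*, a linker histone gene, fell from 1001 to 19.9 FPKM. Of the 4 that stayed within 2-fold, *Hist1h1c* (239 and 345 FPKM) and *Hist1h2bc* (107 and 201 FPKM) were above 10 FPKM. The libraries were made from total RNA, which keeps mRNAs without a poly(A) tail such as these, and histone genes have nearly identical copies, which a table of uniquely mapped reads can undercount. The octamer ATTTGCAT was in 14 of 58 histone windows (24.1%) against 1.74% of all windows. The TATA box TATAAA was in 33 (56.9%) against 13.6%, and the NF-Y box in 49 (84.5%) against 37.4%. Neither the octamer nor the TATA box was limited to histones. The octamer was in 3 of 23 windows of myeloid transcription factors (13%), a list that rose. In cytokine genes it had at least 2 times the share of all windows. The TATA box had that in the cytokine, MHC class I, matrix and neutrophil granule lists. *Hist2h2bb*, which fell from 2701 to 151 FPKM, is shown with its octamer in capitals, 48 bases before the start site.
*Hist2h2bb* (chr3:96269450-96269699, plus strand): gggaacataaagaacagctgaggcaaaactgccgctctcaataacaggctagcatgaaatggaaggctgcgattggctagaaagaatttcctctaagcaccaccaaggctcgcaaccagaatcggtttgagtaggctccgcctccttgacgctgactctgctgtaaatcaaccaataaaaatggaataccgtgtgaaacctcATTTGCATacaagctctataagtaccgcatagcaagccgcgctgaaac

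Chromatin and growth genes split within families. Of DNA methylation genes 4 fell and 1 rose of 11, with a median change of -0.43 that turned to 0.19 with the values as deposited. *Uhrf1*, which brings the maintenance methylase to replicating DNA, fell from 68.85 to 1.35 FPKM. The de novo methylase gene *Dnmt3b* fell from 26.3 to 0.855 FPKM, and its paralog *Dnmt3a* rose from 11.6 to 80.5 FPKM. *Hells*, a remodeler needed for methylation, fell from 26.4 to 1.435 FPKM. *Mbd3*, of the methyl-binding domain family, was at 37.25 and 36.9 FPKM, within 2-fold. Of 20 Polycomb genes 9 fell and 1 rose, with a median change of -0.74. The methyltransferase gene *Ezh2* fell from 23.7 to 2.16 FPKM, and its paralog *Ezh1* rose from 2.39 to 12.05 FPKM. The histone-binding subunit genes *Rbbp4* and *Rbbp7* fell from 49.5 to 21.9 FPKM and from 60.3 to 32.9 FPKM, the latter a change of -1.56 that was -0.85 with the values as deposited. *Pcgf5*, of a variant complex, fell from 16.1 to 5.84 FPKM. Of 8 genes of the *Myc* family and its partners 2 rose and 2 fell (25% each), with a median change of 0.28. Of all genes compared 19.3% rose and 24.3% fell, so that these counts do not set the family apart. *Mycn*, an activator of growth genes, fell from 17.95 to 0.198 FPKM. *Myc*, its paralog, fell from 16.01 to 7.67 FPKM, a change of -1.60 that was -0.97 with the values as deposited. *Mxd4*, which opposes *Myc*, rose from 6.98 to 45.99 FPKM. The partners *Max* and *Mlx* were at 8.51 and 18.3 FPKM and at 11.5 and 28.99 FPKM, within 2-fold on this scale and past it with the values as deposited.

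Of 34 genes that build ribosomes 29 fell and none rose, with a median change of -1.71. *Dkc1*, which modifies ribosomal RNA, fell from 40.1 to 6.51 FPKM. The nucleolar genes *Nop58* and *Nop56* fell from 71.8 to 15.05 FPKM and from 62.05 to 17.6 FPKM. *Nolc1*, a nucleolar chaperone, fell from 43.2 to 12.6 FPKM. The ribosomal proteins themselves moved less: 64 of 75 stayed within 2-fold and 11 fell, with a median change of -0.41 that was 0.25 with the values as deposited, where 6 rose and 3 fell. Those above 10 FPKM that fell most were *Rpl13* (from 18.2 to 5.68 FPKM), *Rpl30* (from 14.45 to 5.33 FPKM), *Rps27a* (from 23.8 to 9.73 FPKM) and *Rps16* (from 37.9 to 25.5 FPKM). The change of *Rps16*, -1.26, was -0.55 with the values as deposited. The values come from reads that map to 1 place, and how many reads this took from ribosomal protein genes was not measured here.

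Most energy genes stayed within 2-fold on this scale. Of 73 genes of the respiratory chain 67 stayed within 2-fold and 6 rose, with a median change of 0.14, against 0.88 and 28 risen with the values as deposited. *Sdhb*, a subunit of complex II, rose from 39.4 to 189 FPKM, and *Cox4i1*, of complex IV, from 429.6 to 1791 FPKM. The complex I genes *Ndufa13*, *Ndufa1* and *Ndufb7* rose from 19.7 to 118 FPKM, from 22.4 to 114 FPKM and from 93.02 to 391 FPKM. In glycolysis 13 of 21 measured stayed within 2-fold, 5 (23.8%) fell and 3 (14.3%) rose, against 24.3% and 19.3% of all genes compared. With the values as deposited 4 fell and 8 rose, and the median of -0.44 turned to 0.26. The glucose transporter genes *Slc2a3* and *Slc2a1* fell from 76.9 to 10.01 FPKM and from 84.3 to 21.2 FPKM. *Slc16a1*, a lactate transporter, fell from 41.65 to 14.5 FPKM. *Pfkm*, a phosphofructokinase, fell from 12.04 to 4.49 FPKM. *Hk3*, the hexokinase of myeloid cells, rose from 0.461 to 177 FPKM. The enzyme genes *Aldoc*, an aldolase, and *Ldhb*, a lactate dehydrogenase, rose from 0.804 to 15.8 FPKM and from 1.81 to 15.5 FPKM.

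Most genes of embryonic growth, endothelium, smooth muscle and fibroblasts fell, whereas granule genes of other myeloid cells moved both ways. Of 14 oncofetal genes 10 fell and none rose, with a median change of -2.60. *Mest* and *Igf2*, imprinted growth genes, fell from 99.4 to 0.479 FPKM and from 109 to 1.63 FPKM. *Grb10*, an imprinted adaptor of growth factor receptors, fell from 61.1 to 0.765 FPKM and *Lin28a*, an RNA-binding protein of early embryos, from 22.95 to 0.0656 FPKM. *Igf2bp3* was at 21.1 and 40.2 FPKM, a change of 0.19, whereas its paralog *Igf2bp1* fell from 54.1 to 11.6 FPKM. Of 11 measured endothelial genes 9 fell, with a median change of -2.02. *Cdh5*, a cadherin, fell from 10.8 to 0.327 FPKM and *Egfl7*, a secreted vessel protein, from 19.2 to 0.677 FPKM. *Kdr*, a receptor for vascular endothelial growth factor, fell from 21.4 to 7.56 FPKM and *Tie1*, a receptor of vessels, from 26.55 to 16.2 FPKM, a change of -1.36 that was -0.68 with the values as deposited. *Pecam1*, which leukocytes also use, stood at 25.7 and 23.8 FPKM, within 2-fold. Of 6 smooth muscle genes 5 fell (median change -2.48), among them *Acta2*, smooth muscle actin, from 87.3 to 1.22 FPKM. *Tagln* and *Cald1*, actin-binding proteins of smooth muscle, fell from 37.35 to 0.332 FPKM and from 19.6 to 1.96 FPKM. All 7 measured genes of fibroblasts and collagens fell (median change -3.49), and the collagen genes *Col1a1* and *Col1a2* fell from 13.1 to 0.373 FPKM and from 17.6 to 0.365 FPKM. *Col5a1*, a minor collagen, fell from 11.2 to 0.140 FPKM and *Postn*, a matrix protein, from 23.25 to 1.72 FPKM. Granule genes of neutrophils split, with 4 risen and 3 fallen of 7 and a median change of 2.88. *Mpo*, which encodes myeloperoxidase, fell from 9.57 to 0.584 FPKM, and the protease genes *Elane* and *Prtn3* fell from 1.52 to 0.0306 FPKM and from 7.91 to 1.55 FPKM. *Lyz1*, a lysozyme gene with a near-identical copy, rose from 0.2975 to 135 FPKM. Of 3 measured eosinophil granule genes 2 rose and 0 fell (median change 2.05), of 3 mast cell and basophil genes 1 rose and 1 fell (0.60), and of 3 dendritic cell genes 1 rose and 2 fell (-1.51), where *Fscn1*, an actin bundler, fell from 34.4 to 0.3155 FPKM. None of 13 lymphoid genes reached the limit.

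The levels in ESC, MES and HB show where gained and lost genes stood before HP, with HE left out. Of the 2042 genes that rose, 416 (20.4%) were under 1 FPKM in ESC, MES, HB and HP, 175 (8.57%) were under it in ESC, MES and HB and at or above it in HP, and 1451 (71.1%) had reached it in ESC, MES or HB. In 1928 of them the MAC value was above those of ESC, MES, HB and HP. Of the 2574 that fell, 2232 (86.7%) were at 1 FPKM or more in each of ESC, MES and HB, 153 (5.94%) were under 1 FPKM in all of these, and 970 were under 1 FPKM in MAC. These counts are on values scaled to HP in every stage. The limits used for gained and for lost genes are not the same, so that the shares of one are not to be set against those of the other.

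The lists differed in their history on the scaled values. Surface and clearance receptors, NADPH oxidase and complement had medians under 1 FPKM in ESC, MES and HB, and the NADPH oxidase already had 4.46 FPKM in HP, against 0.648 for complement and 0.6295 for the receptors. Lysosomal, cathepsin and proton pump genes had medians above 1 FPKM in all 5 stages, with medians for the proton pump of 23.5 FPKM in ESC, 22.8 in MES, 20.4 in HB and 21.6 in HP before 173 in MAC. The median of mitosis genes was 28.5, 24.1, 25.6 and 25.5 FPKM in ESC, MES, HB and HP and 0.629 in MAC. The red cell membrane and megakaryocyte lists had medians under 1 FPKM in ESC, MES and HB and were higher in HP than in MAC. Heme synthesis had medians of 5.39, 6.34 and 5.58 FPKM in ESC, MES and HB, 22.6 in HP and 5.71 in MAC. The median of globins was 5.33 FPKM in ESC, under 1 in MES and HB, 293 in HP and 1.55 in MAC. The red cell membrane list was at 0.198 FPKM in HB and 9.29 in HP, and in MAC at 0.0995. The progenitor factors, at 1.45 FPKM in HB, were at 20.2 in HP and 2.63 in MAC.

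**Figure D4:**
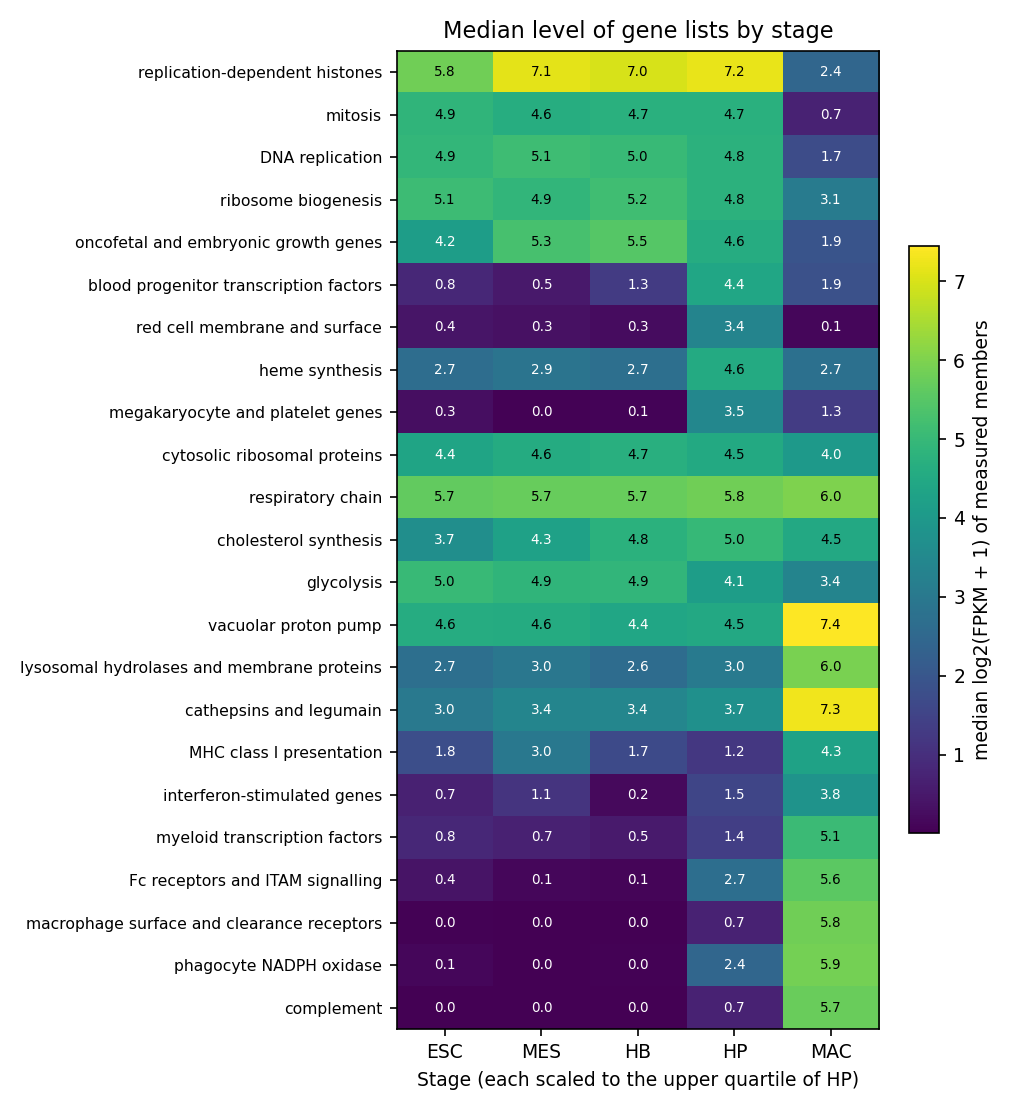
Median level of the measured members of 23 gene lists in ESC, MES, HB, HP and MAC, as log2(FPKM + 1) with each stage scaled to the upper quartile of HP (numbers in the cells). Histone, mitosis and replication lists are high until HP and low in MAC, red cell and progenitor lists are highest in HP of the 5 stages shown, and receptor, oxidase and complement lists are highest in MAC.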

How the data were processed

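RNA-seq of HP and MAC had 2 replicates per stage. The authors aligned colour-space reads of ribosome-depleted total RNA to mm10 (GRCm38) with SHRiMP, kept reads mapped to 1 place, removed duplicates with Picard and deposited, per transcription start site, FPKM values from Cufflinks for RefSeq genes, with replicates combined per stage (versions not given in the sources used here). Their normalization leaves the summed FPKM unequal between stages, and reads that map to several places are not in the values. No counts were analysed here, so the depth is unknown.

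Here the 22089 rows of start sites were summed to 20310 genes. Values of 5 stages were used, and 1 column, of HE, was not used, since no sample of it is among those analysed here. MAC was scaled to the upper quartile of HP, genes under 1 FPKM in both were left out, and changes were taken on log2(FPKM + 1) and called at 2-fold. With 1 value per stage no test was run.

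Members were described in 51 gene lists, of whose members 34 have no row, and 12 marker lists. The members and lists were chosen with earlier results of these data known. Named by rule were up to 4 members per list of at least 10 FPKM with the largest change in the majority direction, up to 2 called the other way, the 10 largest gains and the 10 largest losses of all genes, markers, symbol families and start site switches; further members were named after their values were seen. Promoter windows and their letters are from RefSeq (GRCm38.p6). A few list members are counted but not reported here by name. The scripts were tested on simulated data. Alternatives were the values as deposited, scaling to the median ratio, a pseudocount of 0.1, minima of none and 10 FPKM, a 4-fold call and start sites as rows. Python 3.11.15, pandas 2.3.3, NumPy 2.4.6, SciPy 1.17.1 and matplotlib 3.10.9 were used.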

Additional observations from a re-analysis of the deposited data

How the results depend on the processing

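The counts of genes that moved depended on the scaling and the limits. With the values as deposited the gains numbered 3615 and the losses 1501, a share of gains of 70.7% against 44.2% on the scaled values. That share was 53% with scaling to the median ratio, 50.7% at a minimum of 10 FPKM, where 1335 fell, and 42.7% with a pseudocount of 0.1. At 4-fold 879 rose and 825 fell, and 51.6% of these rose. With no minimum the median of the dendritic cell list turned from -1.51 to 0.01. In that setting 5 more medians came within 2-fold: cytokine genes (0.54), iron handling (0.48), neutrophil (0.09), eosinophil (0.33) and endothelial genes (-0.85). At a minimum of 10 FPKM the eicosanoid (1.79), activation state (2.04), mast cell (3.29, 1 gene) and Polycomb (-1.52) medians lay beyond 2-fold. With a pseudocount of 0.1 the mast cell median (1.19) did too. With the values as deposited the medians of the G1 and S phase list (-0.82) and the dendritic cell list (-0.97) lay within 2-fold, and those of the eicosanoid (1.21), activation state (1.21), integrin (1.34) and mast cell (1.07) lists lay beyond it. Of 221 named genes 208 kept their call as deposited and 219 with scaling to the median ratio. Counts of risen members that moved by over 1.5 times as deposited, beside those of the lists given above, were 4 instead of 2 of 7 activation state genes, 7 instead of 4 of 12 integrins, 8 instead of 4 of 24 G1 and S phase regulators, 4 instead of 2 of 8 genes of the *Myc* family and its partners, 2 instead of 1 of 11 DNA methylation, of 20 Polycomb and of 3 mast cell genes, and 1 instead of 0 of 14 oncofetal and of 11 endothelial genes. Fallen members numbered 0 instead of 1 in the activation state and mast cell lists and 1 instead of 2 in the *Myc* and dendritic cell lists, and scaling to the median ratio left 6 instead of 11 fallen ribosomal proteins, no fallen activation state gene and 1 risen endothelial gene. No paired analysis was possible because the table holds 1 combined value per stage. For the same reason no replicate could be left out. The depth behind each FPKM is unknown, so that the error of low values cannot be stated.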

Other observations

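Genes were also grouped by the letters at the start of their symbols, without regard to the lists above. Among families of at least 6 measured members, the 5 highest median changes belonged to Ccl chemokines (7 of 9 rose, median 4.59), Ifi genes induced by interferon (10 of 10, 3.45), Csf genes of colony-stimulating factors and their receptors (5 of 6, 3.34), annexins, which bind membranes when calcium rises (6 of 8 Anxa genes, 3.22), and Toll-like receptors (7 of 7, 2.86). Annexins were in no list above. The 5 lowest medians belonged to Hist histone genes (61 of 65 fell, median -4.41), Mcm genes (9 of 10, -3.64), Cdca genes of cell division (7 of 7, -3.48), Col collagen genes (12 of 14 fell and 2 rose, -2.20) and Smc genes, which encode the rings that hold and fold chromosomes (6 of 6, -2.17). Families of this kind were formed by symbol only and can hold unrelated genes.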
